A study of Mus musculus with 4 samples.

Results

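Rpl3l and Eef1a2 are the striated muscle forms of a pair of core components of protein synthesis, and Rpl3 and Eef1a1 are the forms that most other cells use. All 4 genes were taken by symbol from the 21885 genes counted on Visium arrays, and they were selected because earlier results of these data had shown their levels to change between sections and with the cardiomyocyte content of the spots. Sections of 4 mouse hearts were measured, 1 healthy control, 1 heart at 3 days post-infarction (dpi) and 2 hearts at 5 dpi. All mice, the control included, carried the Collagen1a1-GFP reporter, in which a collagen promoter marks fibroblasts in green, and were 8 to 12 weeks old; infarcts were made by tying a coronary artery. One section of 10 μm was placed on the array from each heart, so the control and 3 dpi have no replicate. The sexes on the labels are female for the control and for 3 dpi, and the 5 dpi hearts are called dpi5_female and dpi5_male here, after their labels.

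RPL3 is a protein of the large ribosomal subunit that reaches towards the site where peptide bonds are formed, and RPL3L takes its place in ribosomes of heart and skeletal muscle. The elongation factor eEF1A brings each charged tRNA to the ribosome. Its form eEF1A1 is made in nearly all tissues, while eEF1A2 is the form of adult cardiomyocytes, skeletal muscle fibres and neurons, and in muscle the exchange of both general forms for the muscle forms belongs to maturation after birth.

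The pairs are close enough in sequence that the reads could in principle be mistaken for each other, so the most alike stretches of their coding sequences are shown, as long as the 91 bases of the sequenced read. Coding bases of Rpl3l and Rpl3 were 74.4% identical over 1205 aligned bases, and those of Eef1a2 and Eef1a1 were 80.1% identical over 1386. The stretches run 5′ to 3′ on the coding strand (GRCm38, GENCODE M21), and capitals mark the bases that differ within a pair.
Rpl3l (chr17:24733492-24733670, plus strand, exons 5 to 6): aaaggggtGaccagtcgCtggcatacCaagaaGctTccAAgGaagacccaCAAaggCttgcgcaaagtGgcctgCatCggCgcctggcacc
Rpl3 (chr15:80079764-80080369, minus strand, exons 5 to 6): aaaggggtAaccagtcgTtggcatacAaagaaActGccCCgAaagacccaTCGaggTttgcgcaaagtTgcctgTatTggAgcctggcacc
Eef1a2 (chr2:181153830-181155352, minus strand, exons 2 to 3): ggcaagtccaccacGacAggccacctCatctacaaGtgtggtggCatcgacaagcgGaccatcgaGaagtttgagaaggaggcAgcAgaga
Eef1a1 (chr9:78480420-78480600, minus strand, exons 2 to 3): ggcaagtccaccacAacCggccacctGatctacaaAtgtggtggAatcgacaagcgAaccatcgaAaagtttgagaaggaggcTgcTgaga
Even here Rpl3l and Rpl3 differed at 16 positions and Eef1a2 and Eef1a1 at 9, and no stretch of 91 bases was shared between members. Both muscle forms also shared none with any other annotated transcript. Rpl3 shared 1021 of its 1261 stretches, 350 of the last 500 among them, with 7 processed pseudogenes, and Eef1a1 shared 540 of 1704, 49 of the last 500, with 12 other annotated genes, 11 of them processed pseudogenes. Reads from such stretches cannot be placed uniquely, so the level of Rpl3, and less so that of Eef1a1, is uncertain and the ratios to them are best compared between samples. Full gene positions were chr17:24727820-24736143 for Rpl3l, chr15:80077791-80091868 for Rpl3, chr2:181147653-181157014 for Eef1a2 and chr9:78478449-78489151 for Eef1a1.

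After filtering, 1146 spots of the control, 1741 at 3 dpi, 1535 of dpi5_female and 1423 of dpi5_male were used, with 3742105 to 9540940 UMIs (counted molecules) outside mitochondrial genes. Levels are CPM, UMIs per 1000000 of these, with 95% exact Poisson intervals, and ratios are UMIs of the muscle form per 100 UMIs of the general form with 95% exact binomial intervals; both cover counting error only. UMIs were read at transcript 3′ ends, 1 count per molecule, so ratios between genes are not scaled by length. Sections differed in makeup: the 12 cardiomyocyte markers held 10.1% of the UMIs in the control against 4.53%, 1.98% and 3.71% in the infarcted sections, mitochondrial UMIs 40.1% against 21.4%, 13.3% and 14.3%, and the sum of 7 fibroblast markers 1181 CPM against 10234 to 21171 CPM. All 12 cardiomyocyte markers were counted in every section. Of the other tissues known to use the muscle forms, the fast skeletal myosin Myh4 and the neuronal gene Snap25 were at 0 UMIs in all 4 sections, which allows up to 3 UMIs in each; the 8 skeletal muscle markers summed to between 8.55 and 33.9 CPM and the 8 neuron and nerve markers to between 33.1 and 212 CPM, lowest in the control, and their part in the levels was not tested. The 4 Y-linked genes had 0 UMIs in the control and at 3 dpi, 704 in dpi5_female and 1 in dpi5_male, so the sex labels of both 5 dpi sections go against the data and no comparison by sex was made. Fewer cardiomyocytes and less RNA per cardiomyocyte cannot be told apart in a spot.

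Over whole sections, both general forms were several-fold higher after infarction, Rpl3l was far lower, and Eef1a2 was higher at 3 dpi and lower at 5 dpi. These levels chose the genes and are given without a test. Rpl3 was at 233 CPM in the control (871 UMIs, interval 218 to 249), 1006 CPM at 3 dpi, 1063 CPM in dpi5_female and 895 CPM in dpi5_male. Rpl3l was at 289 CPM in the control (1083 UMIs, 272 to 307), 70.9 CPM at 3 dpi, 18.6 CPM in dpi5_female and 41.6 CPM in dpi5_male. No intervals of the control and an infarcted section overlapped for either gene.

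For the elongation factor, Eef1a1 was at 677 CPM in the control (2532 UMIs, 651 to 704), 3382 CPM at 3 dpi, 4164 CPM in dpi5_female and 3345 CPM in dpi5_male. Eef1a2 was at 228 CPM in the control (852 UMIs, 213 to 243), 312 CPM at 3 dpi (300.3 to 324), 112 CPM in dpi5_female and 86.7 CPM in dpi5_male (80.5 to 93.3). Eef1a2 thus ran in the order 3 dpi, control, then both 5 dpi sections, while Rpl3l ran control, 3 dpi, then both 5 dpi sections in the opposite order to each other; all neighbours in these orders were separated by more than counting error, with no estimate of the spread between hearts at 3 dpi and in the control.

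Expressed as ratios, Rpl3l stood at 124 UMIs per 100 of Rpl3 in the control (interval 114 to 136), 7.05 at 3 dpi, 1.75 in dpi5_female and 4.65 in dpi5_male. Eef1a2 stood at 33.6 per 100 of Eef1a1 in the control (31.1 to 36.4), 9.23 at 3 dpi, 2.69 in dpi5_female and 2.59 in dpi5_male. The control was therefore 17.6-fold, 71.2-fold and 26.7-fold above the infarcted sections for the ribosomal pair and 3.65-fold, 12.5-fold and 12.98-fold for the elongation factor pair. The 5 dpi sections differed from each other beyond counting error in the first ratio (intervals 1.496 to 2.02 and 4.16 to 5.18) and not in the second, and the marker share was higher in dpi5_male, which had the higher first ratio.

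**Figure D1:**
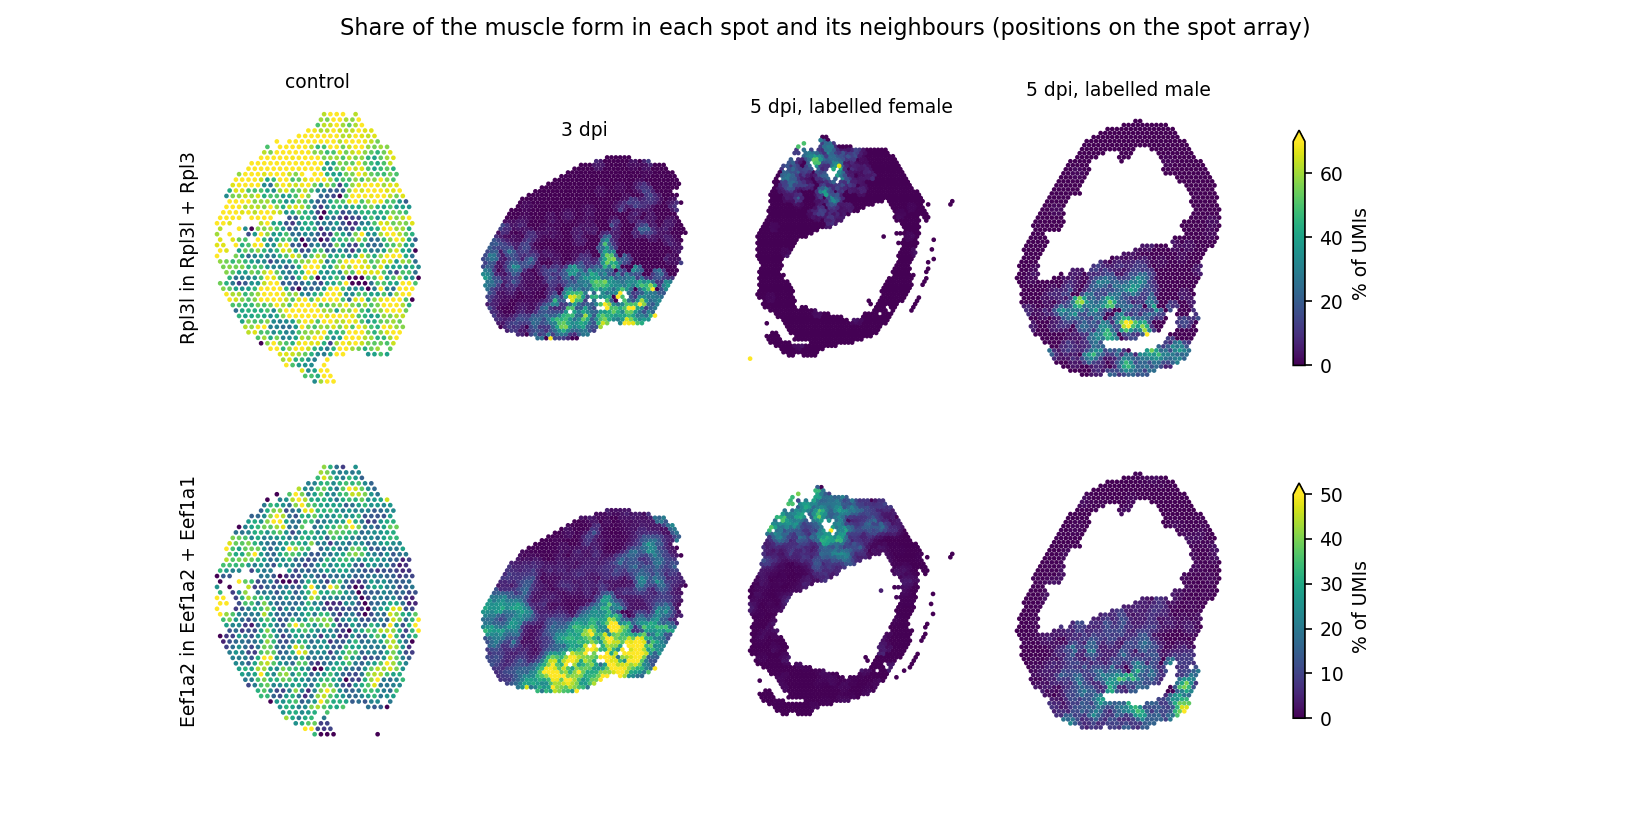
Spots of the 4 sections at their places on the array, coloured by the share (%) of the muscle form in the summed UMIs of the pair over each spot and its direct neighbours, Rpl3l above and Eef1a2 below, on a scale that ends at 70% for the first and 50% for the second. The control is high for Rpl3l throughout, and in the infarcted sections both muscle forms are concentrated in 1 stretch of the wall, with Eef1a2 highest at 3 dpi.

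Within each section, spots were ranked by their cardiomyocyte marker share and cut into 5 groups of equal size. Because the genes were selected on this axis, the values are a description. Rpl3l per 100 Rpl3 went from 0.568 in the lowest group to 49.2 in the highest at 3 dpi, from 0.146 to 16.4 in dpi5_female and from 0.158 to 28.6 in dpi5_male. In the control, whose spots all lay between 5.09% and 14.7% marker share, it went from 84.8 to 159. The highest group of each infarcted section stayed below the lowest group of the control, although the highest group at 3 dpi held more marker RNA (10.6%) than the lowest of the control (8.91%). In fixed bands of share this order does not hold, since the lowest control band, of 20 spots, was at 35.3 and the highest bands of the infarcted sections at 57.8, 36.0 and 40.8.

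Eef1a2 per 100 Eef1a1 went from 1.49 to 60.4 across the groups at 3 dpi, from 0.0967 to 23.8 in dpi5_female, from 0.144 to 17.3 in dpi5_male and from 24.6 to 42.7 in the control. Here the highest group at 3 dpi lay above all 5 groups of the control. In the fixed band of 8% to 10% marker share, Rpl3l per 100 Rpl3 was 106 in the control, 28.7 at 3 dpi, 18.3 in dpi5_female and 27.7 in dpi5_male. In the same band Eef1a2 per 100 Eef1a1 was 27.8 in the control, 37.1 at 3 dpi, 27.4 in dpi5_female and 15.7 in dpi5_male. At equal marker share the control thus stood apart for the ribosomal pair and lay among the infarcted sections for the elongation factor pair.

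**Figure D2:**
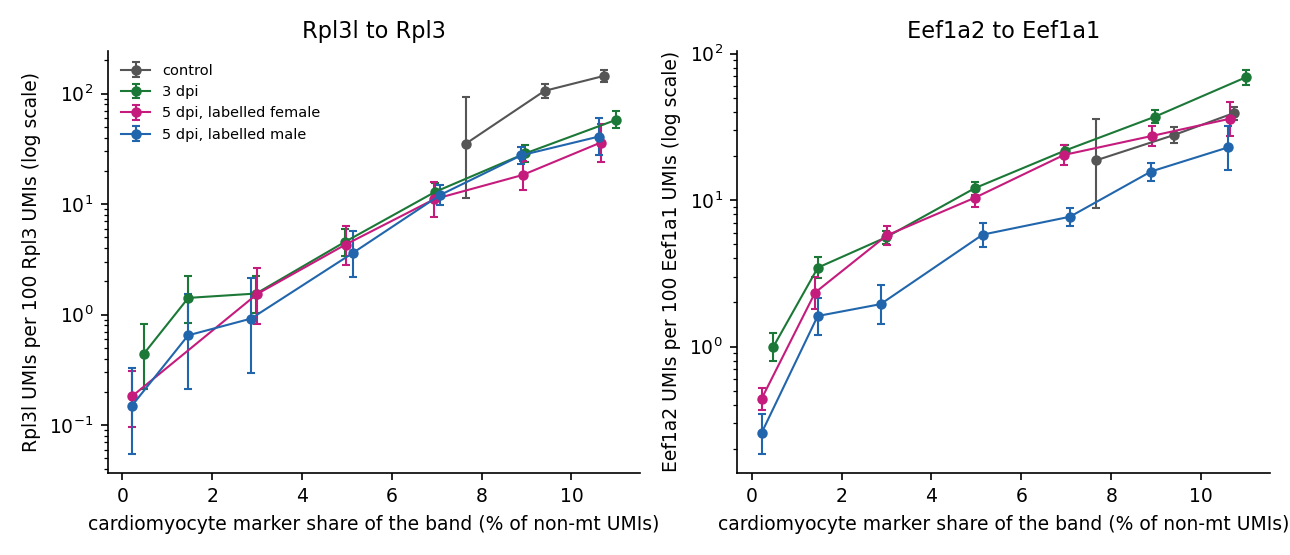
UMIs of the muscle form per 100 UMIs of the general form (log axis) against the cardiomyocyte marker share of spots pooled in fixed bands of share, with 95% exact binomial intervals, Rpl3l to Rpl3 on the left and Eef1a2 to Eef1a1 on the right; a band with no UMI of the muscle form is not drawn. Each infarcted section climbs with the share in both panels, while the control lies above the others on the left and between 3 dpi and dpi5_male on the right.

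Zones were then set by distance from the infarct. The infarct zone (IZ) was made of connected spots low in marker share, border zone 2 (BZ2) of muscle spots 1 to 2 spot steps from it, border zone 1 (BZ1) of those at 3 to 4 steps, and the remaining muscle spots formed the remote zone (RZ). Since the IZ is set by the marker share, differences between zones again lie on the axis of selection and carry no test. Rpl3 was at 519, 573 and 546 CPM in the RZ of the 3 dpi section, dpi5_female and dpi5_male, and at 1210, 1159 and 1117 CPM in the IZ. Eef1a1 was at 1146, 1463 and 1445 CPM in the RZ and at 4429, 4722 and 4550 CPM in the IZ, in the same order of sections. The 2 general forms were lowest in the control, higher in remote muscle and highest in the infarct in all 3 sections.

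Rpl3l was at 215, 125 and 107 CPM in the RZ, at 103, 32.2 and 37.0 CPM in BZ2 and at 16.2, 2.66 and 4.34 CPM in the IZ, where it rested on 81, 20 and 21 UMIs. Eef1a2 was at 583, 381 and 168 CPM in the RZ, at 444, 331 and 156 CPM in BZ2 and at 177, 50.5 and 31.0 CPM in the IZ. From the RZ to the IZ, Rpl3l differed by -3.65, -5.11 and -4.33 in log2(CPM + 1), more than all 20 other cardiomyocyte genes compared at 3 dpi and in dpi5_female and more than 19 of 20 in dpi5_male. Eef1a2 differed by -1.71, -2.89 and -2.40, near the medians of these 20 genes, -1.57, -3.18 and -2.57. In these values both steps, to BZ2 and on to the IZ, were larger for Rpl3l than for Eef1a2. The members were selected along this axis and the 20 genes were not, so the ranks are a description and support nothing.

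**Figure D3:**
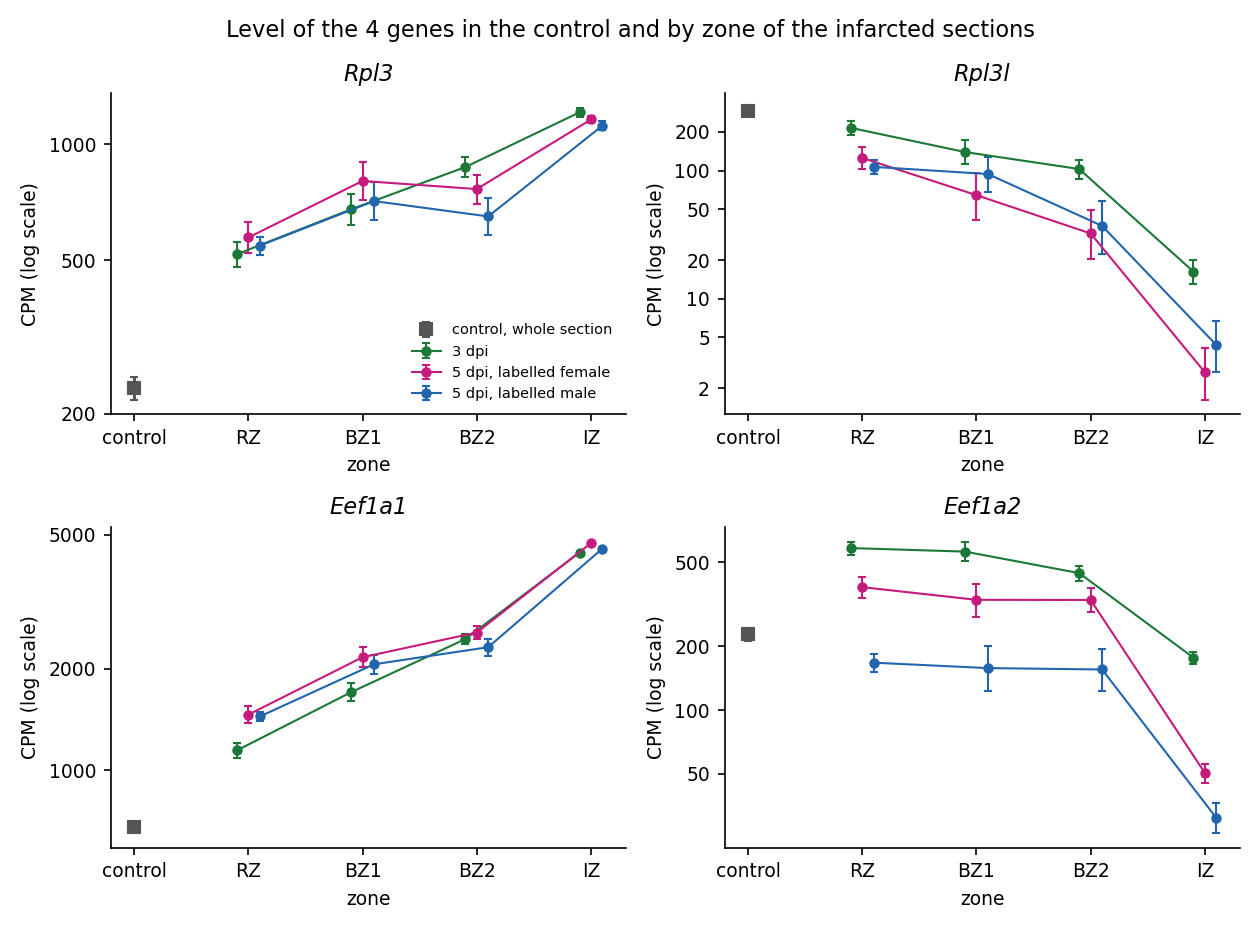
CPM (log axis) of Rpl3, Rpl3l, Eef1a1 and Eef1a2 in the whole control section (square) and in the remote zone (RZ), border zones 1 and 2 (BZ1, BZ2) and infarct zone (IZ) of the 3 infarcted sections (circles), with 95% exact Poisson intervals. Both general forms are lowest in the control, higher in the RZ and highest in the IZ, though Rpl3 in BZ2 is below BZ1 in both sections at 5 dpi; Rpl3l is lower at each step of the same order, and Eef1a2 in the RZ lies above the control at 3 dpi and in dpi5_female and below it in dpi5_male.

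Relative to the RNA of cardiomyocytes themselves, the muscle forms parted. Rpl3l amounted to 2.86 UMIs per 1000 UMIs of the 12 markers in the control, to 2.19, 1.44 and 1.31 in the RZ, to 1.53, 0.594 and 0.617 in BZ2 and to 0.793, 0.395 and 0.5003 in the IZ. Eef1a2 amounted to 2.25 per 1000 in the control, to 5.94, 4.38 and 2.05 in the RZ, to 6.60, 6.102 and 2.60 in BZ2 and to 8.65, 7.51 and 3.57 in the IZ. Per marker UMI, Rpl3l was therefore lower and Eef1a2 higher from the RZ through BZ2 to the IZ, in each of the 3 sections. In BZ1 of dpi5_male, Rpl3l was at 1.34, slightly above the RZ. More than 8 steps from the infarct border Rpl3l stood at 2.23, 1.69 and 1.46 per 1000, still below the control. The levels of the markers themselves are part of this ratio, at 98085, 86902 and 81801 CPM in the RZ and 20457, 6719 and 8676 CPM in the IZ. The 20 other cardiomyocyte genes fell less steeply, from 50868, 48165 and 50235 to 14679, 5787 and 7270 CPM. Their sum was thus also higher per marker UMI in the IZ. The 8 neuron and nerve markers rose from 60.2, 86.0 and 73.7 to 186, 225 and 229 CPM. What each contributes was not tested.

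**Figure D4:**
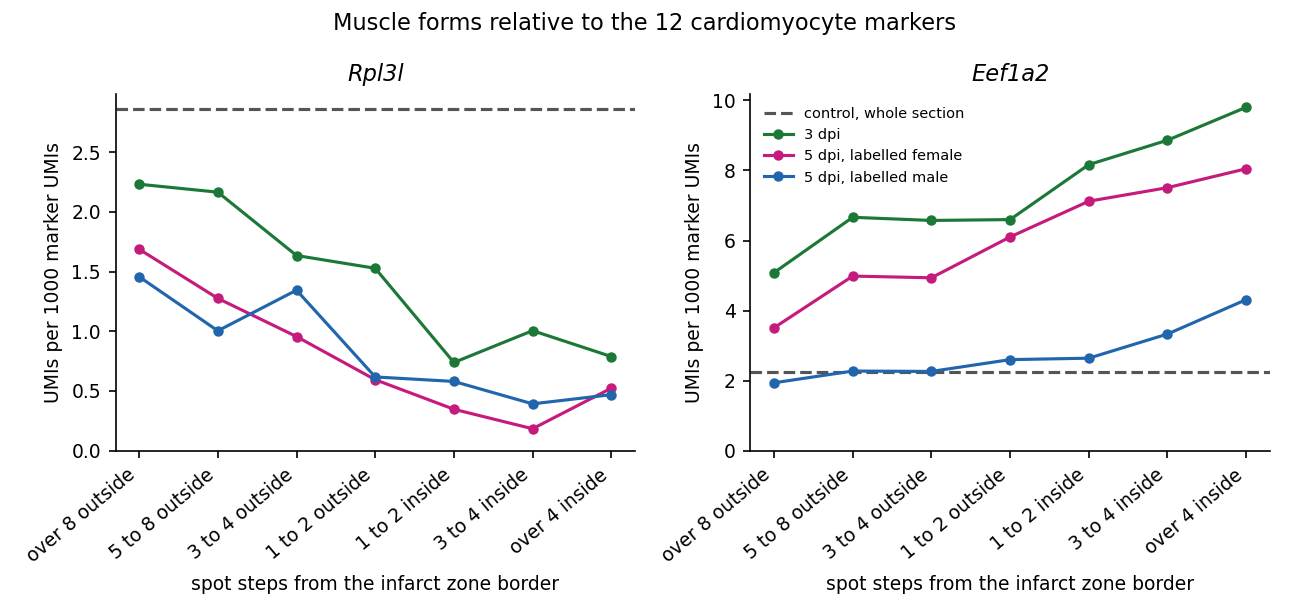
UMIs of Rpl3l (left) and Eef1a2 (right) per 1000 UMIs of the 12 cardiomyocyte markers against the number of spot steps from the border of the infarct zone, remote muscle on the left of each panel and the infarct interior on the right; the dashed line is the whole control section. Rpl3l is below the control line in every bin of the 3 infarcted sections, and Eef1a2 is above it in every bin at 3 dpi and in dpi5_female.

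Position relative to the infarct at equal marker share is a contrast that the selection did not use. Spots of BZ2 were paired one to one with the RZ spots of their section closest in marker share, within 2 percentage points, which gave 103 pairs from 301 BZ2 spots at 3 dpi, 59 from 136 in dpi5_female and 101 from 104 in dpi5_male. The shares of the paired sets were 7.86%, 6.35% and 6.03% near the infarct against 8.13%, 6.67% and 6.34% far from it, so a small difference remained in each section. The sums of both sets were compared over the 3 sections by edgeR's quasi-likelihood test with the section as a block. Of 5868 genes tested, 38 passed a Benjamini-Hochberg adjusted p of 0.05, or 0.648%, and 0 of the 4 members did; Eef1a1 alone passed at an unadjusted p under 0.05, as did 7.63% of all genes. DESeq2, with the same design, called 3 genes and 0 of the members. Near the infarct Eef1a1 was at 1962, 2354 and 2298 CPM against 1570, 1908 and 2044 CPM in the paired remote spots. The near value was higher in 3 of 3 sections, with a log2 difference of 0.24 ± 0.08 (SE), an interval of 1.06-fold to 1.32-fold, an unadjusted p of 0.00284 and an adjusted p of 0.205 by edgeR. Over all genes, 80.1% had a lower log2 difference than Eef1a1. The SEs and intervals of this paired test draw almost wholly on a spread shared by all genes (592 degrees of freedom). They do not measure the spread of a single gene between the 3 hearts.

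Rpl3l was at 144, 33.2 and 38.1 CPM near the infarct against 139, 87.7 and 54.5 CPM in the paired remote spots, on 62, 9 and 19 UMIs against 64, 21 and 29. The sections did not share a direction, and the log2 difference of -0.35 ± 0.23 (SE) had an interval of 0.572-fold to 1.07-fold and an adjusted p of 0.821 by edgeR. Eef1a2 was at 482, 365 and 154 CPM against 513, 397 and 160 CPM (log2 difference -0.10 ± 0.13 (SE), 0.778-fold to 1.11-fold, adjusted p = 0.933). Rpl3 was at 746, 649 and 656 CPM against 613, 660 and 652 CPM (0.08 ± 0.10 (SE), 0.917-fold to 1.22-fold, adjusted p = 0.933). At equal marker share no member was separated from remote muscle by the test. The log2 difference of Rpl3l rested on which sections were kept, at -0.88 without 3 dpi and -0.14 without dpi5_female, with adjusted p of 0.308 and 0.996 by edgeR.

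Without pairing, near and remote spots differ in marker share, the axis of selection, and no test is given for the members. Rpl3 and Eef1a1 were then higher near the infarct, by 0.33 and 0.72 on the log2 scale, and the differences of Rpl3l and Eef1a2 were -1.51 and -0.41. Pairing on the share thus took the difference of Rpl3l from -1.51 to -0.35. Other genes did move at equal share. All 4 erythroid markers were lower near the infarct (median -1.17), and 3 of 7 fibroblast markers and 2 of 8 border cardiomyocyte markers were higher, among them Clu, a secreted chaperone (0.88), and Nppa, the atrial natriuretic peptide (0.62). Of the 12 markers used for the pairing, 1 was lower near the infarct (Tnni3, cardiac troponin I, -0.28, with a median of the 12 of -0.09). So was 1 of 20 other cardiomyocyte genes (Fabp3, the heart fatty acid binding protein, -0.31, with a median of -0.09). Of 5 mural markers, 1 was called lower (Myh11, smooth muscle myosin, -1.94), while the median of the 5 was 0.49 and the highest 0.94. The part of all these genes in the values of the members was not tested. DESeq2 called 1 erythroid, 0 fibroblast and 1 border marker, edgeR with no section block 0 of each, and without dpi5_male 0, 0 and 1; Tnni3, Fabp3 and Myh11 were called in none of these 3 fits. Of the other translation genes, 0 of 9 elongation and release factors, 0 of 40 initiation factors, 0 of 46 large subunit and 0 of 33 small subunit ribosomal proteins, 0 of 4 ribosomal protein paralogs and 0 of 2 enzymes that modify RPL3 or eEF1A passed by edgeR, and 0 by DESeq2; at an unadjusted p under 0.05 edgeR gave 10 large subunit genes, 10 small subunit genes, 1 initiation factor and 0 of the others, against 448 of all 5868 genes (7.63%).

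Remote muscle was next set beside the control, RZ spots being paired one to one with control spots of closest marker share within 2 percentage points (373 of 380, 174 of 200 and 387 of 533 spots). The paired shares were 9.92%, 9.13% and 8.89% against 10.1%, 9.26% and 9.37% in the control. The 3 comparisons share the 1 control section and no test was made. Rpl3 was at 507, 551 and 495 CPM in the RZ of the 3 dpi section, dpi5_female and dpi5_male against 227, 294 and 260 CPM in the paired control spots, or 2.23-fold (interval 1.93 to 2.59), 1.87-fold and 1.90-fold of the control. Rpl3l was at 220, 134 and 125 CPM against 278, 230 and 256 CPM, or 0.792-fold (0.672 to 0.933), 0.580-fold and 0.490-fold (0.411 to 0.583) of the control. Eef1a1 was at 1110, 1357 and 1230 CPM against 686, 773 and 737 CPM, or 1.62-fold, 1.76-fold and 1.67-fold of the control. In all 3 sections these genes differed from the paired control spots beyond counting error, Rpl3 and Eef1a1 upwards and Rpl3l downwards. Of the markers of other cells and states, some were also higher in the whole RZ than in the control, 7 fibroblast markers at 3303 to 4503 CPM against 1181 CPM, 8 macrophage markers at 1478 to 1938 CPM against 890 CPM, 8 border cardiomyocyte markers at 11477 to 18995 CPM against 3433 CPM and 8 neuron and nerve markers at 60.2 to 86.0 CPM against 33.1 CPM. Cycling (86.6 to 196 against 14.2 CPM), neutrophil (21.8 to 80.0 against 16.6 CPM) and skeletal muscle markers (10.5 to 15.5 against 8.55 CPM) were higher as well. Endothelial (602 to 796 against 679 CPM), mural (344 to 538 against 496 CPM), erythroid (6873 to 33251 against 8667 CPM) and atrial markers (3.01 to 8.86 against 7.22 CPM) lay on both sides of the control. The part of all these markers in the levels of the members was not tested.

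Eef1a2 did not follow its ribosomal counterpart. It was at 581, 384 and 171 CPM in the RZ against 210, 202 and 210 CPM in the paired control spots. The fold was 2.76 at 3 dpi (interval 2.38 to 3.21) and 1.90 in dpi5_female (1.53 to 2.39), while in dpi5_male the level was 0.814-fold of the control (0.689 to 0.963). Eef1a2 was thus above the control in 2 of 3 remote zones, and both 5 dpi hearts lay on different sides of it. As ratios, Rpl3l per 100 Rpl3 was 43.4, 24.3 and 25.3 in the RZ against 122, 78.2 and 98.3 in the paired control spots, and Eef1a2 per 100 Eef1a1 was 52.3, 28.3 and 13.9 against 30.6, 26.1 and 28.5.

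The difference of Rpl3 in remote muscle was set against the other proteins of the same subunit. The members were selected on differences between sections and these genes were not, so the ranks are a description and support nothing. In log2(CPM + 1), Rpl3 was 1.16, 0.90 and 0.93 above the paired control spots, higher than all 46 other large subunit genes in each section; their medians were 0.05, -0.09 and 0.07 and their maxima 0.44, 0.29 and 0.39. Eef1a1, at 0.69, 0.81 and 0.74, lay above all 8 other elongation and release factors that reached 50 CPM in a zone or the control, at 3 dpi and in dpi5_male, and below only Etf1, a release factor, in dpi5_female. Rpl3l, at -0.33, -0.78 and -1.02, lay below all 20 other cardiomyocyte genes in both sections at 5 dpi and below 16 of 20 at 3 dpi. Eef1a2, at 1.46, 0.93 and -0.30, exceeded 19, 19 and 7 of these 20 genes; Myh7, the slow myosin heavy chain, was the highest of them in every section. The median over all 4098 genes compared was 0.17, 0.16 and 0.07.

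**Figure D5:**
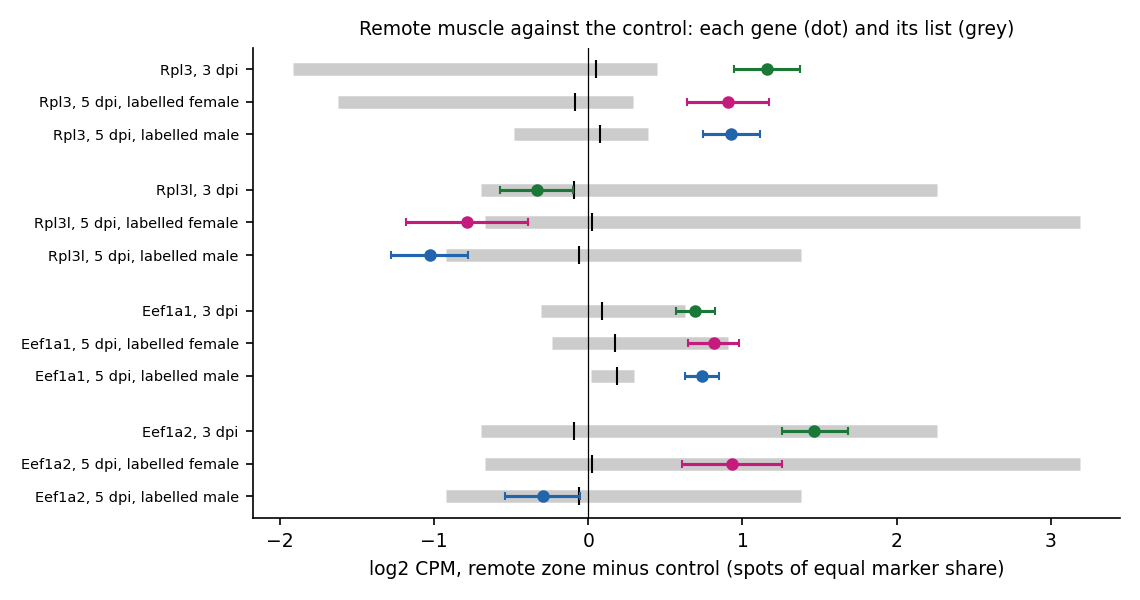
Difference in log2 CPM between remote zone spots and control spots paired on cardiomyocyte marker share, 1 line per gene and infarcted section, with 95% counting intervals; grey bars span the range and ticks mark the median of the comparison list, in log2(CPM + 1): 46 other large subunit ribosomal proteins for Rpl3, 8 other elongation and release factors for Eef1a1, and 20 cardiomyocyte genes for Rpl3l and Eef1a2. Rpl3 lies beyond its list in all 3 sections, and Rpl3l lies at or below the lower end of its list in both sections at 5 dpi.

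Other muscle and general isoform pairs gave a scale for these shifts. In 7 pairs of energy metabolism, among them Ckm and Ckb, the muscle and brain creatine kinases, and Eno3 and Eno1, muscle and general enolase, the ratio in the whole control section, not paired on marker share, was 1.22-fold to 1.89-fold that of the whole RZ at 3 dpi, 1.38-fold to 2.22-fold in dpi5_female and 1.33-fold to 2.48-fold in dpi5_male. For Rpl3l to Rpl3 the corresponding values were 3.00, 5.68 and 6.36, and for Eef1a2 to Eef1a1 0.662, 1.29 and 2.90. In the spots paired on marker share, a comparison added after these values were seen, the 7 pairs ran from 1.04-fold to 1.81-fold, from 1.15-fold to 2.07-fold and from 1.16-fold to 1.81-fold. The ribosomal pair was then at 2.82, 3.22 and 3.88, and the elongation factor pair at 0.585, 0.922 and 2.05, so that its direction in dpi5_female turned with the pairing. The members were selected on these ratios, so their place among pairs not so selected is a description and supports nothing. From RZ to IZ the ratio of the ribosomal pair was lower 30.9-fold, 95.4-fold and 50.4-fold, and the elongation factor pair 12.7-fold, 24.4-fold and 17.0-fold. The 7 other pairs reached at most 19.5-fold, 54.3-fold and 43.7-fold, the last from Ckm to Ckb. The IZ ratios of the ribosomal pair rested on 81, 20 and 21 Rpl3l UMIs. Their intervals were 1.06 to 1.67, 0.140 to 0.354 and 0.240 to 0.594 per 100 Rpl3. On so few UMIs, its place relative to Ckm to Ckb in dpi5_male lies within counting error.

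The rest of the translation machinery was tested between IZ and RZ over the 12 zone sums, where 5298 of 9811 genes passed by edgeR (54%), 28.2% higher and 25.8% lower; the members lie on the axis of selection and were left out. Of the general ribosomal proteins, 26 of 46 of the large subunit were higher in the IZ and 2 lower (median log2 difference 0.32), with Rpl10 at 0.69 and Rpl4 at 0.66, and 19 of 33 of the small subunit were higher and 1 lower (median 0.31), with Rps12 at 0.81. Rpl36, of the large subunit, was lower in the IZ (-0.48). Of 41 initiation factors, 4 rose and 15 fell (median -0.22); Eif4a1, the helicase of the cap-binding complex, rose by 0.75, and Eif4e, the cap-binding protein itself, fell by 0.81. Leaving out either 5 dpi section cut the 15 lower calls to 9, and in CPM, before TMM scaling, the summed initiation factors were higher in the IZ than in the RZ in all 3 sections (6738 against 5672, 6328 against 5571 and 6317 against 5536 CPM). TMM scaling lowered all differences by about 0.39 on the log2 scale relative to CPM. Without dpi5_female, 5 of 46 large and 6 of 33 small subunit genes were called higher, against 20.5% of all genes, and with no section block 7 and 6, against 23.6%; in both fits the ribosomal shares were below that background.

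Of 12 other elongation and release factors tested in that comparison, 2 rose and 1 fell, a smaller share than among all genes; without dpi5_female 0 were called, and without dpi5_male or with no section block 1, higher. Eef1b2 and Eef1g, both subunits of the exchange factor that reloads eEF1A with GTP, were higher in the IZ by 0.52 ± 0.13 (SE) and 0.33 ± 0.12 (SE), with edgeR adjusted p of 0.00243 and 0.0262, and Hbs1l, a factor that rescues stalled ribosomes, fell by 0.44. Among 4 tested enzymes that modify eEF1A or RPL3, the lysine methyltransferase gene Eef1akmt4 rose by 1.002 and Eef1akmt1 fell by 0.58. Of 4 other ribosomal protein paralogs, 0 passed by edgeR and 1 had an unadjusted p under 0.05. All 20 cardiomyocyte genes outside the markers fell (median -2.82), and all 8 macrophage markers and 5 of 7 fibroblast markers rose. The IZ was set by a low cardiomyocyte marker share, so the fall of cardiomyocyte genes follows largely from that choice. The zones differ in cell content as well as in position, and the part of this in the other values was not tested.

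The genes whose levels ran most like the muscle forms were sought over the 12 zone sums and the control, among 4098 genes reaching 50 CPM in any of them, by Pearson correlation of log2(CPM + 1). These 13 sums come from 4 hearts and share the gradient of cardiomyocyte content, and the correlations are descriptive. For Rpl3l they were Lrrc39, a sarcomere M-band protein (0.994), Sdhb (0.993) and Sdha (0.990) of mitochondrial complex II, the lipid droplet protein Plin5 (0.991) and the electron transfer flavoprotein Etfb (0.990). For Eef1a2 they were Gpc1 (0.959), Fxr1, an RNA-binding protein abundant in muscle (0.955), the superoxide dismutase Sod1 (0.947), Kif1c (0.946) and Inpp5a (0.946). The lists of both muscle forms had no gene in common, and Rpl3l and Eef1a2 themselves correlated at 0.81, against 0.96 for Rpl3 with Eef1a1. Per UMI of the 12 cardiomyocyte markers, the correlation of Rpl3l with Eef1a2 turned to -0.25, and the genes most like Rpl3l were then Dhrs7c, Plin5, Tnni3, Eno3 and Yipf7, of which Plin5 alone was in the list above.

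The sequence before the transcription start is shown for the muscle forms. Both are the 250 bases upstream of the RefSeq start (GRCm38.p6), 5′ to 3′ on the strand of the gene, and capitals mark a motif found by search.
Rpl3l (chr17:24727576-24727825, plus strand): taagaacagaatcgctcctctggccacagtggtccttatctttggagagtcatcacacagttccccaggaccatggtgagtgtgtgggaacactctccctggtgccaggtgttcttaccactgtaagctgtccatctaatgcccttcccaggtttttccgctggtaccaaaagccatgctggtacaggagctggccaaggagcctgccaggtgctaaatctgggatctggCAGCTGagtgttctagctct
Eef1a2 (chr2:181157016-181157265, minus strand): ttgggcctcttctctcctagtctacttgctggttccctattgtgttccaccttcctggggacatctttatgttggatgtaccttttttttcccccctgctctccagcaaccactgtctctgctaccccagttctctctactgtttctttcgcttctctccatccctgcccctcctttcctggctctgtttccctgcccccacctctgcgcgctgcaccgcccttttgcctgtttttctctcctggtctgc
Both strands were searched for the E-box CAGCTG, which the MyoD family of factors can bind, the MCAT element CATTCC, the TATA box TATAAA and the MEF2 and CArG elements. Rpl3l held 1 E-box, 20 to 15 bases before the start, as did 4271 of 32851 promoters of this length. Eef1a2 held none of the 5 motifs, and the window of Eef1a1 none either. A second RefSeq start of Rpl3l held 1 MEF2 element, found in 2.92% of promoters.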

How the data were processed

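Spatial expression was measured with Visium arrays on 1 section from each of 4 mouse hearts. The deposited values are whole UMI counts for each gene in each spot, unnormalized, made by the authors with Space Ranger 1.3.1 from an Ensembl 105 based mouse reference with GFP added (mm10 per the submitters' notes), with spots under tissue picked by hand; the counter's treatment of reads with several matches may lower genes with pseudogene copies. Spots with at least 500 UMIs, 250 genes and at most 50% mitochondrial UMIs were kept, as in the study, which left a median of 4968 to 6935 UMIs per spot. The members, gene lists and zones were chosen with earlier results of these data known.

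Muscle spots had a marker share of at least 0.5 times the 90th percentile of their section, and infarct patches at least 10 spots. Spots were paired within 2 percentage points of share. Named genes were the members, up to 3 genes called with the highest and the lowest change per list, the 5 genes most like each muscle form, and the other isoform pairs; Clu, Nppa, Etf1 and Myh7 were named after their values were seen. UMI sums were compared with edgeR 4.0.16 (R 4.3.3; TMM, filterByExpr, Benjamini-Hochberg over all genes) and alternatively DESeq2 1.42.0. Simulated data with known changes, tested in the same way, gave 53.0% of 2-fold and 96.4% of 4-fold changes recovered in the paired comparison. False calls were 5% there and 7.07% in the zone comparison. Every simulated gene had the same fixed dispersion, not estimated from these sections, so these rates do not measure the power on the real data. Sequences were compared with Biopython 1.88 on GRCm38. 623 spots outside the marked tissue were left out.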

Additional observations from a re-analysis of the deposited data

Results flagged for a closer look

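Rpl3l in muscle spots near the infarct, against remote spots of equal cardiomyocyte marker share, differed by 0.0456 on the log2 scale at 3 dpi and by -1.40 in dpi5_female and -0.52 in dpi5_male, so that the directions at 3 dpi and at 5 dpi were opposite. The difference between time points was not tested, 3 dpi is 1 section, and the counting intervals of the 3 dpi section (-0.48 to 0.57) and of dpi5_male (-1.43 to 0.37) include 0, while that of dpi5_female (-2.71 to -0.21) does not.

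The 623 spots of dpi5_male that lie outside the marked tissue, used in no comparison, held 1193 CPM of Rpl3 and 4753 CPM of Eef1a1. These levels were above the 233 and 677 CPM of the control and the 1117 and 4550 CPM of the IZ of the same section. Rpl3l was at 15.7 CPM there on 35 UMIs and Eef1a2 at 59.2 CPM on 132 UMIs, with a cardiomyocyte marker share of 1.69%. The ratios of 1.32 Rpl3l per 100 Rpl3 and 1.25 Eef1a2 per 100 Eef1a1 lay between those of the infarct zone and the remote zone of the same section.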

How the results depend on the processing

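Paired near and remote spots gave 38 calls, 3 by DESeq2, 0 with no replicate block (138 at an unadjusted p under 0.05) and 1 to 61 when 1 section was left out: 61 without 3 dpi, 19 without dpi5_female and 1 without dpi5_male. Without pairing on share there were 1142, and the members, then compared along the axis of selection, differed by 0.33 (Rpl3), -1.51 (Rpl3l), 0.72 (Eef1a1) and -0.41 (Eef1a2) on the log2 scale. In every setting with pairing 0 of 4 members passed, with adjusted p of Eef1a1 from 0.111 to 0.999; their direction turned for Eef1a2 with a muscle limit of 0.4 (0.0065) and for Rpl3 without 3 dpi (-0.0299, and 0.13 to 0.14 without either 5 dpi section). With sections left out, Rpl3l ran from -0.88 to -0.14, Eef1a1 from 0.20 to 0.30 and Eef1a2 from -0.11 to -0.08. The infarct zone comparison gave 4164 to 4624 calls with 1 section left out, 4572 with no replicate block.

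In fixed bands of marker share, the lowest control band held 35.3 Rpl3l per 100 Rpl3 and 18.6 Eef1a2 per 100 Eef1a1. The highest bands held 57.8 and 68.8 at 3 dpi, 36.0 and 36.0 in dpi5_female and 40.8 and 23.0 in dpi5_male, and the lowest 0.998, 0.440 and 0.258 Eef1a2 per 100 Eef1a1. With all tissue spots, dpi5_female held 2.04 Rpl3l per 100 Rpl3, and 21.4 and 26.6 for both pairs in its highest group of 5. Without pairing, RZ minus control was 1.302 and 1.23 for Rpl3, -1.21 and -1.44 for Rpl3l and 1.12 and 1.10 for Eef1a1 in dpi5_female and dpi5_male. In spots paired on share, an alternative chosen after seeing the data, the control held 0.922-fold the Eef1a2 to Eef1a1 ratio of the RZ in dpi5_female, against 1.29-fold without pairing. For these, the cause was not tested. Levels in CPM scale with the denominator; over all UMIs the control held 139 CPM of Rpl3 and 173 CPM of Rpl3l.

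With 1 control and 1 heart at 3 dpi, differences between sections cannot be told apart from differences between hearts. Rpl3l rests on as few as 1 UMI in 1 of 5 groups of spots, which limits the lowest ratios.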
